A study of Mus musculus with 3 samples.

Results

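The genes of MHC antigen presentation were followed through every cell class of the P6 retina, in libraries of wild-type, Tspan12 KO and Ctnnb1 cKO mice. The set held 10 genes of the 33696 in the count tables, matched by symbol. Of these, 6 serve the class I route (H2-K1, H2-D1, B2m, Tap1, Tapbp and Psmb8) and 4 the class II route (Cd74, H2-Aa, H2-Ab1 and H2-Eb1). They were chosen from measured levels of these same libraries, so their levels are a description and no test rests on them.

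The data were droplet-based 3' RNA counts of cells enriched from the retina with CD31 and CD11b beads, which favour endothelial cells and microglia. WT denotes wild-type mice, Tspan12 KO mice lacked Tspan12 in every cell, and Ctnnb1 cKO mice carried Ctnnb1 loxp/loxp with the Pdgfb-iCreERT driver, an inducible Cre active in endothelial cells, and received tamoxifen from the first postnatal day. Tspan12 is a co-receptor of Norrin signalling, and Ctnnb1 encodes β-catenin, which carries that signal to the nucleus. All mice were C57BL/6 and were taken at P6 (day 6), retinas of several animals were pooled, and no treatment of the WT mice with tamoxifen was described for this experiment. Each genotype had 1 library, so genotype, animals and library cannot be told apart. No difference between genotypes could be tested, and all intervals below are 95% intervals that cover counting error only.

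The files held 9951, 14426 and 9151 cell barcodes for WT, Tspan12 KO and Ctnnb1 cKO, with 92684519, 137114957 and 37008362 UMIs (unique transcript molecules). The Ctnnb1 cKO library stood apart: the median share of mitochondrial UMIs in endothelial-like cells was 0.374%, against 3.82% in WT and 2.28% in Tspan12 KO, and endothelial-like cells made up 32.1% of its cells, against 5.99% and 2.28%. Their median depth was 3345.5 UMIs there, 15785 in WT and 14677 in Tspan12 KO. Libraries shared 21 to 37 barcodes pairwise. Tspan12 read 95.9, 84.4 and 40.0 CPM (UMIs per 1000000 UMIs of the class) in the endothelial-like cells of the 3 libraries, in the same order, and Ctnnb1 read 523, 616 and 444 CPM. Reads at a 3' end need not lie in the deleted part, so these levels do not check the labels.

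Cells were named from clusters by marker genes, and each name stands for cells like that type. The libraries held 538, 290 and 2710 endothelial cells (ECs), 277, 346 and 1914 microglia, 1, 21 and 301 macrophages or monocytes, and 1896, 3076 and 1733 rods. Most WT and most Tspan12 KO ECs lay in the same cluster, and most Ctnnb1 cKO ECs lay in others. The cluster led by Slc38a5 held 510 of the 538 WT ECs and 63 of the 2710 Ctnnb1 cKO ECs, whereas the cluster led by Hmcn1 held 8 and 1762. Microglia divided in the same way. A cluster led by Cd300lf held 1804 of 1914 Ctnnb1 cKO microglia, 14 WT cells and 21 Tspan12 KO cells. The cluster led by Gpr34 held 162 WT, 249 Tspan12 KO and 57 cKO cells. A summed level in a class can reflect more positive cells or more RNA per cell, which a sum does not separate.

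MHC class I molecules sit on nearly all nucleated cells and show fragments of the cell's own proteins to CD8+ T cells. A polymorphic heavy chain pairs with β2-microglobulin, the proteasome cuts the peptides, and the TAP transporter carries them into the endoplasmic reticulum, where tapasin helps to load them. Class II molecules are normally made by professional antigen-presenting cells, where the invariant chain Cd74 guards the peptide groove of an α and a β chain until it is exchanged for an antigen. Interferon-γ can switch on class II in other cells, endothelium included, and interferons of both types raise class I. The healthy postnatal retina is poor in MHC molecules, and its microglia are the usual place to look for them.

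The promoters of 4 members are shown because their letters hold the short elements through which interferons and the MHC activator complexes are known to act. The RefSeq table (build GRCm38.p6) gave 9 windows, each of 300 bases from 250 before to 50 after a transcription start, for 8 of the 10 members. Capitals mark matches on either strand to 3 motifs: AANNGAAA, a core of the element bound by interferon regulatory factors, CCAAT, the box bound by NF-Y, and TGACG, part of the X2-type element of MHC promoters. Matching letters may overlap, as within TGACGTCA. The windows are H2-K1 at chr17:34000298-34000597 on the minus strand, H2-D1 at chr17:35262844-35263143 on the plus strand, B2m at chr2:122147437-122147736 on the plus strand, and H2-Aa at chr17:34287774-34288073 on the minus strand, each written 5′ to 3′ along its gene.
H2-K1: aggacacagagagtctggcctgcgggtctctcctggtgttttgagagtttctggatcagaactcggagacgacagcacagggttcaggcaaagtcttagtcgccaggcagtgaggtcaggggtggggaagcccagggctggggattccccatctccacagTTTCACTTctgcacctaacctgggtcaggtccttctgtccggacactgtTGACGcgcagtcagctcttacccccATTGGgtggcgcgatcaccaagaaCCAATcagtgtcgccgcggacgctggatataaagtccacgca
H2-D1: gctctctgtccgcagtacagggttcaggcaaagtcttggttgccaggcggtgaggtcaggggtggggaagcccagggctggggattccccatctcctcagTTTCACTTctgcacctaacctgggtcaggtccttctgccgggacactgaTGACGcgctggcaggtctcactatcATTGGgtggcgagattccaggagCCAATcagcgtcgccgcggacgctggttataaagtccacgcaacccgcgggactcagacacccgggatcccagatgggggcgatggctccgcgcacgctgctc
B2m: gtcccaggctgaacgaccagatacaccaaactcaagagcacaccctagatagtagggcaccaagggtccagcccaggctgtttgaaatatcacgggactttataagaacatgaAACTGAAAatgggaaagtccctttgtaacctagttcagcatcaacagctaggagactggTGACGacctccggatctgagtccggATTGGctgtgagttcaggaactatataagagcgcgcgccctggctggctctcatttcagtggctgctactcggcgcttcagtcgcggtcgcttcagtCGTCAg
H2-Aa: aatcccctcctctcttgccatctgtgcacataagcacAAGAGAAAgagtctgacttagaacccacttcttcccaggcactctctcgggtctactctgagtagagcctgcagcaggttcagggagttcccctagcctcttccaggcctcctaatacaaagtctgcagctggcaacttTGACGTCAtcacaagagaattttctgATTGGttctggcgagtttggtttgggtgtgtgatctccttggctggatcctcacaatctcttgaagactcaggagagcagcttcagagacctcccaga

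All 4 windows held the 3 motifs, which is why they were shown. The interferon core came first, then TGACG, then CCAAT, with a further TGACG match at the end of the B2m window. Over the 9 member windows, the interferon core was found in 5, CCAAT in 8 and TGACG in 6. A pair of overlapping H2-K1 windows with the same matches is counted among them. Of 32851 promoters in the table, 23.9%, 37.4% and 20.8% held these motifs. The windows of Tap1, Tapbp, Psmb8 and H2-Eb1 had no interferon core, Tapbp and H2-Eb1 had no TGACG, and Psmb8 had none of the 3. The interferon core was also present in 15 of the 21 windows found for a list of 25 interferon-stimulated genes. A match describes letters in a window and is not a binding site.

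In ECs of the Ctnnb1 cKO library, all 6 class I members were higher than in WT. Summed over the members, the class I level was 580 CPM in WT, 473 in the Tspan12 KO and 2516 in the Ctnnb1 cKO, a log2 ratio to WT of 2.12 (2.08 to 2.15) for the cKO and -0.29 (-0.35 to -0.23) for the Tspan12 KO. The log2 ratios of the 6 genes, computed with 5 CPM added, had a median of 1.85 in the cKO, against -0.08 over the 12799 genes with 50 or more UMIs in that comparison. A gene was called where this log2 ratio reached 1 in either direction. All 6 class I genes were called higher, where 4.02% of all genes were called higher and 5.13% lower. The rule that chose the genes used these levels, so nothing is read from that count.

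H2-K1, a classical class I heavy chain, differed most. It was read at 53.3 CPM in WT ECs, 69.7 in the Tspan12 KO and 699 in the Ctnnb1 cKO. The cKO level was 13.1-fold that of WT, a log2 ratio of 3.71 (3.61 to 3.82), and the Tspan12 KO ratio was 0.39 (0.22 to 0.55). H2-D1, the other classical heavy chain, was read at 235, 152 and 661 CPM, with log2 ratios of -0.63 (-0.73 to -0.53) for the Tspan12 KO and 1.49 (1.44 to 1.55) for the cKO. H2-D1 thus led H2-K1 in WT ECs and fell slightly below it in the cKO. Heavy chain genes resemble each other closely, and reads of one can be assigned to another.

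B2m, the light chain shared by all class I molecules, was read at 213 CPM in WT, 170 in the Tspan12 KO and 877 in the Ctnnb1 cKO ECs. Its log2 ratio was 2.04 (1.98 to 2.10) in the cKO and -0.33 (-0.43 to -0.23) in the Tspan12 KO. Tap1, a subunit of the peptide transporter, was the rarest class I member, at 9.69, 13.9 and 68.1 CPM. Its cKO ratio was 2.81 (2.57 to 3.07), and its Tspan12 KO ratio of 0.52 (0.13 to 0.90) rested on 90 UMIs. The gain in the cKO was smallest for Tapbp, which encodes tapasin, at 33.4, 40.0 and 85.8 CPM, a ratio of 1.36 (1.21 to 1.51). Psmb8, an immunoproteasome subunit, was read at 35.4, 27.9 and 125 CPM, and its cKO ratio was 1.83 (1.69 to 1.97).

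In Tspan12 KO ECs the class I genes moved in both directions. H2-K1, Tap1 and Tapbp were slightly higher than in WT, H2-K1 only before thinning (its log2 ratio was -0.073 in thinned cells), while H2-D1, B2m and Psmb8 were slightly lower, and their median log2 ratio was -0.03, against 0.01 over all 12209 genes counted. None of the 6 was called, where 0.598% of all genes were called higher and 1.14% lower. Each class II member had fewer than 50 UMIs over both libraries and was not counted.

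**Figure D1:**
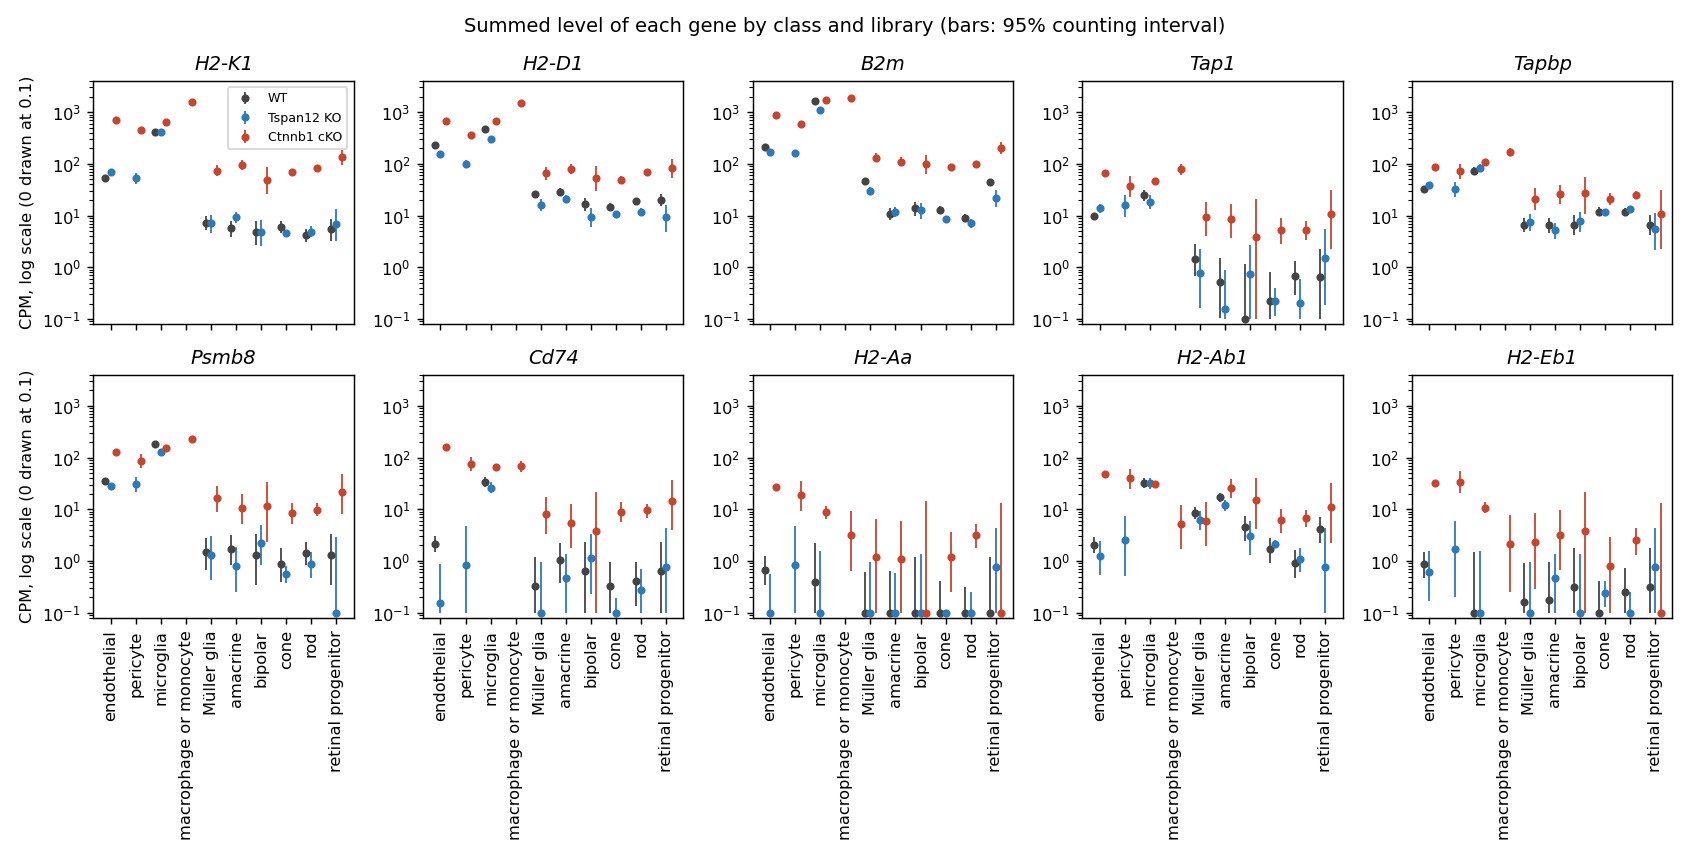
Summed level of each of the 10 genes (CPM, log axis, with 0 drawn at the foot) by cell class for the WT, Tspan12 KO and Ctnnb1 cKO libraries, with 95% counting intervals as bars. In ECs the cKO point lies above WT for every gene, from 85.8 against 33.4 CPM for Tapbp to 160 against 2.18 CPM for Cd74. In microglia the difference varies with the gene, and B2m reads 1698 CPM in the cKO and 1652 CPM in WT.

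**Figure D2:**
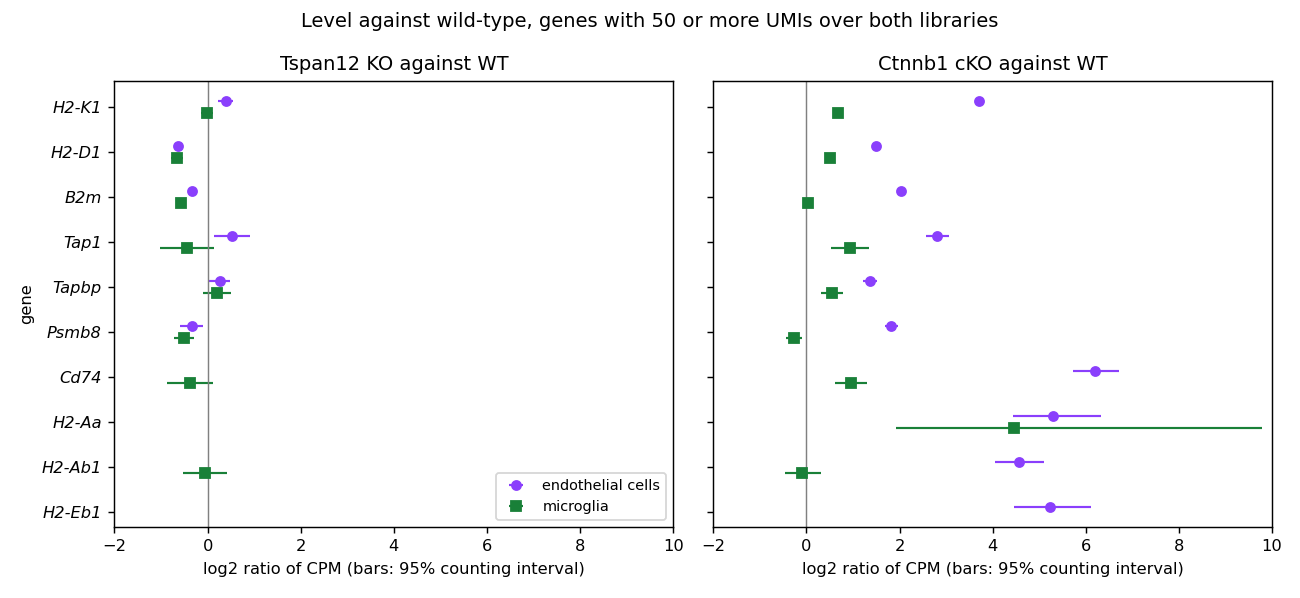
Log2 ratio of CPM to WT for each gene in ECs and microglia, with the Tspan12 KO on the left and the Ctnnb1 cKO on the right and 95% counting intervals as bars. Points are drawn for genes with 50 or more UMIs over both libraries, and H2-Eb1 in microglia, at 0 in WT, has none. In the cKO the EC points run from 1.36 for Tapbp to 6.20 for Cd74, and the microglial point of Psmb8 lies at -0.27.

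The class II members were near absent from WT and Tspan12 KO ECs and readily counted in the Ctnnb1 cKO. Together they read 5.78 CPM in WT ECs, 2.01 in the Tspan12 KO and 267 in the Ctnnb1 cKO, a log2 ratio of 5.53 (5.23 to 5.85) for the cKO. A single WT cell held 54 of the 93 class II UMIs of WT ECs. Each of the 4 genes had fewer than 50 UMIs in WT ECs and entered the comparison only through the cKO library, so their number past the fold supports nothing. Within the Slc38a5-led cluster alone, 510 WT ECs read 5.94 CPM and 63 cKO ECs 75.8 CPM (44.9 to 120), and class I RNA stood at 562 and 1819.8 CPM.

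Cd74, the invariant chain, was read at 2.18 CPM in WT (35 UMIs), 0.15 in Tspan12 KO (1 UMI) and 160 in Ctnnb1 cKO ECs (2045 UMIs), a log2 ratio of 6.20 (5.72 to 6.72) for the cKO. H2-Ab1, the β chain of the I-A molecule, was read at 2.05, 1.23 and 48.3 CPM, with a cKO ratio of 4.56 (4.05 to 5.11). H2-Aa, the α chain of I-A, was read at 0.68 CPM (11 UMIs) in WT, at 0 UMIs in the Tspan12 KO and at 27.0 CPM (346 UMIs) in the cKO, a ratio of 5.30 (4.45 to 6.32). H2-Eb1, the β chain of I-E, was read at 0.87, 0.62 and 32.5 CPM, and its cKO ratio was 5.22 (4.46 to 6.11). In cKO ECs the order was therefore Cd74, H2-Ab1, H2-Eb1 and H2-Aa, with Cd74 making up 59.7% of the class II UMIs. These are shares of 3' UMIs, not amounts of protein.

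ECs held most of the class II RNA in the Ctnnb1 cKO library. They carried 3426 of its 4939 class II UMIs, or 69.4%, while holding 39.5% of all its UMIs. Microglia carried 732, or 14.8%, and held 19.4% of all its UMIs. In WT the total was smaller, with 182 of 582 class II UMIs in neural classes (31.3%), 170 in microglia (29.2%) and 93 in ECs (16.0%). These classes held 46.0%, 3.33% and 21.2% of all WT UMIs. In Tspan12 KO 254 of 503 were in neural classes (50.5%), 139 in microglia (27.6%) and 13 in ECs. There the same classes held 75.3%, 2.27% and 6.14% of all UMIs. The microglial shares depend on how many cells are named microglia. Without doublet removal these were only 125, 110 and 229 cells in WT, Tspan12 KO and cKO. Myeloid cells then held 3.63%, 1.79% and 11.4% of class II UMIs. Of the class I UMIs, ECs held 44.5%, 22.9% and 47.9% in the 3 libraries and microglia 34.0%, 36.9% and 31.2%.

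Class II RNA was spread over many cKO ECs. Of the 2710 cells, 842 had 1 or more class II UMIs and 216 had 5 or more, and no cell had more than 39. To compare libraries of different depth, each cell was thinned to 2000 UMIs and shallower cells were left out, which removed 18 of 538 WT, 27 of 290 Tspan12 KO and 825 of 2710 cKO ECs. A class II UMI was then found in 0.96% of WT ECs (5 of 520), 0.38% of Tspan12 KO (1 of 263) and 23.7% (21.8 to 25.7) of cKO ECs. Unthinned, the shares were 6.32%, 4.48% and 31.1%. Transcripts of 2 or more class II members were found together in 8.91% (7.66 to 10.3) of thinned cKO ECs. None of the 520 WT cells had them, which allows a share of up to 0.577%, and none of the 263 Tspan12 KO cells, which allows up to 1.14%. These are limits on cells with UMIs, not on cells that express the genes.

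Rods gauge free RNA, because they should make no class II. After thinning, a class II UMI was found in 0.32% of WT rods, 0.32% of Tspan12 KO rods and 3.65% of cKO rods, at median unthinned depths of 3427, 2051 and 1467 UMIs, and 2 or more members in 1 of 684 cKO rods (0.15%). The cKO share in ECs lay above that in cKO rods, and the counting intervals of WT and Tspan12 KO ECs overlapped those of the rods of the same library. In microglia the share was alike in the 3 libraries, at 11.7%, 11.4% and 13.4%, with 2 or more members in 0.87%, 0.69% and 0.89%. H2-K1 was found in 12.1%, 11.4% and 57.2% of thinned ECs, 51.3%, 53.1% and 67.3% of microglia, and 0.84%, 1.27% and 14.0% of rods.

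**Figure D3:**
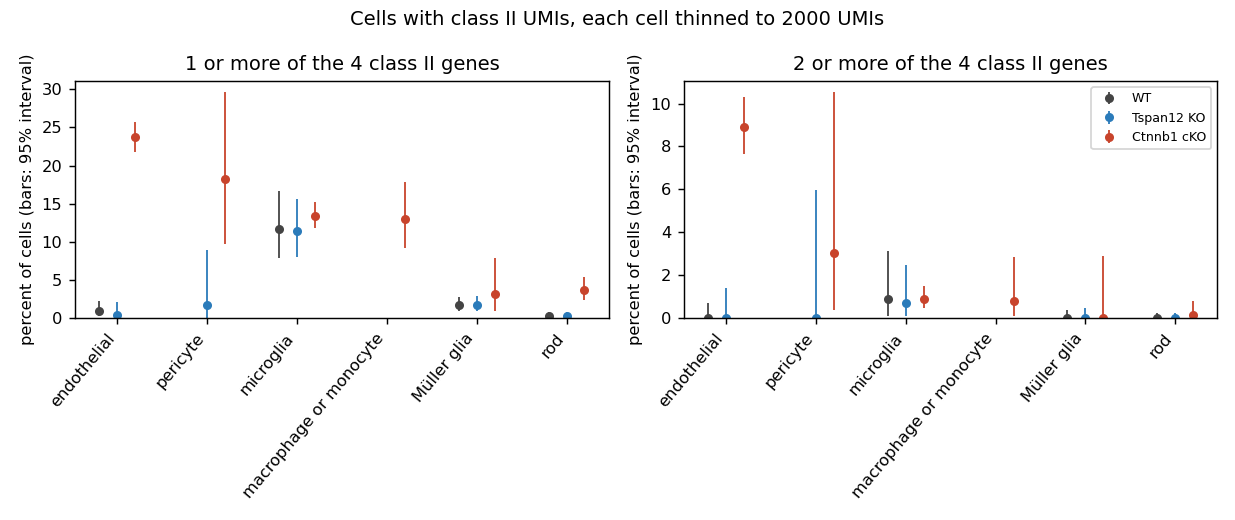
Percent of cells with UMIs of any class II member, and of 2 or more, by class and library after thinning each cell to 2000 UMIs, with exact 95% binomial intervals as bars. Ctnnb1 cKO ECs stand at 23.7% and 8.91%, and microglia lie between 11.4% and 13.4% for any member in the 3 libraries.

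Markers of other cell types stood at similar levels in cKO ECs with and without class II UMIs, apart from pericyte and lymphocyte markers. Endothelial markers summed to 5723 CPM in cells with 0 class II UMIs, 5593 in those with 1 or more and 5604 in those with 5 or more. The 8 microglial markers summed to 303, 277 and 251 CPM, macrophage or monocyte markers to 105, 110 and 98.3 CPM, and dendritic cell markers to 33.2, 32.1 and 32.4 CPM. Lymphocyte markers summed to 2.95, 0.561 and 0.507 CPM, and pericyte markers to 23.2, 37.8 and 55.7 CPM. Class II-positive cells were deeper, with median UMIs of 2873, 4637 and 7721.5 in the same order.

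Within cKO ECs, levels of both routes varied with the subcluster. The member genes were kept out of the clustering, while interferon-stimulated genes were not, so the contrast is a description. The arterial-like subcluster led by Bmx (324 cells) read 3428 CPM of class I and 428 of class II RNA, and an unnamed subcluster led by Six3 (743 cells) read 3294 and 400 CPM. The tip-like subcluster led by Cdh13 (781 cells) read 2738 and 219 CPM, and the cycling subcluster led by H2ac24 (317 cells) read 2485 and 333 CPM. A pair of unnamed subclusters, led by Ptpru (291 cells) and Rasd1 (220 cells), lay far lower. They read 799.9 and 756 CPM of class I and 27.2 and 16.8 CPM of class II RNA. H2-K1 alone ranged from 107 CPM in the Rasd1-led to 1023 CPM in the Six3-led cells.

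The low subclusters lay nearer to WT than to the other cKO ECs. WT ECs fell mainly into a capillary-like subcluster (300 cells, H2-K1 66.9 CPM) and a cycling subcluster led by Ncapg (176 cells, H2-K1 42.2 CPM), neither of which held more than 9 cKO cells. The 25 interferon-stimulated genes summed to 1274 CPM in the Ptpru-led and 1265 CPM in the Rasd1-led cells, against 4352 to 6728 CPM in the other 4 large cKO subclusters and 1112 CPM in all WT ECs. Their median UMIs were 3472 and 3722, against 1965 to 5774 in the other 4. Microglial markers stood at 296 and 320 CPM, against 271 to 346 CPM.

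Both low subclusters were also almost without Y-linked RNA, at 3.67 and 3.96 CPM against 55.0 to 84.1 CPM in the 4 high ones. Of their 511 cells, 269 had Xist and no Y-linked UMIs and 3 the reverse, while the 4 high subclusters held 492 and 404 such cells. Xist is transcribed from the inactive X chromosome of female cells, mice of both sexes were used, and the files do not say which cells came from which pup. Among the high subclusters, Xist-positive cells had more class I RNA (3406 against 2666 CPM) and less class II RNA (217 against 405 CPM) than Y-positive ones. Over all cKO ECs, H2-K1 read 680 CPM in Xist-positive and 716 CPM in Y-positive cells, and Cd74 read 77.7 and 239 CPM. With pups pooled, sex and animal cannot be told apart.

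**Figure D4:**
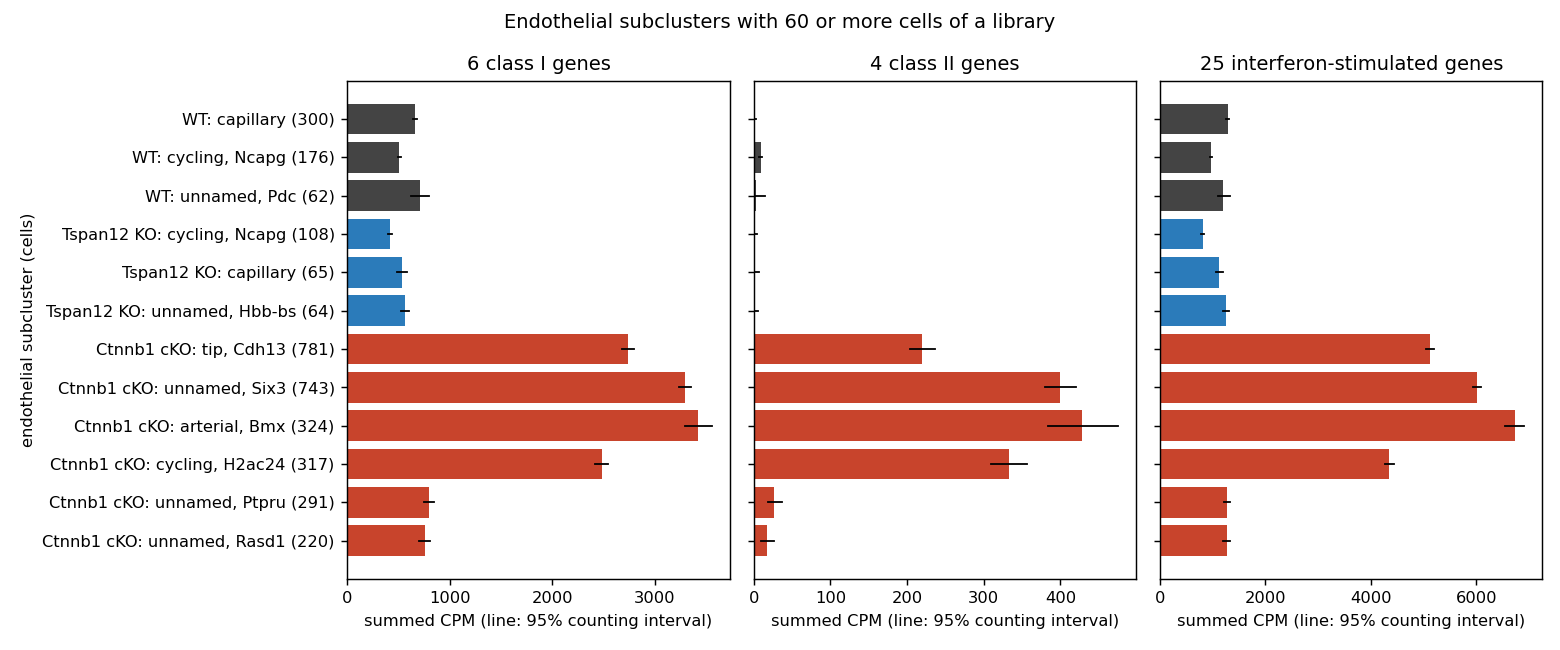
Summed CPM of the class I members, the class II members and the 25 interferon-stimulated genes in endothelial subclusters with 60 or more cells of a library, with 95% counting intervals as lines and cell numbers in brackets. Among cKO subclusters those led by Ptpru and Rasd1 read 799.9 and 756 CPM of class I RNA, and the other 4 read 2485 to 3428 CPM.

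Microglia held more class I RNA than ECs in WT. The 6 class I members summed to 2820.0 CPM in WT, 2061 in the Tspan12 KO and 3339 in the Ctnnb1 cKO microglia. The log2 ratio of this sum to WT was -0.45 (-0.50 to -0.40) in the Tspan12 KO and 0.24 (0.20 to 0.28) in the cKO, where that of ECs was -0.29 (-0.35 to -0.23) and 2.12 (2.08 to 2.15). The median log2 ratio was 0.51 in the cKO, against 0.04 over 10052 genes, and -0.42 in the Tspan12 KO, against 0.07 over 8482 genes. None of the 6 was called in either comparison. In the cKO 4.73% of all genes were called higher and 4.9% lower in microglia, and in the Tspan12 KO 0.601% and 1.12%.

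B2m was the most abundant member in microglia, at 1652, 1118 and 1698 CPM, and its cKO ratio was 0.04 (-0.01 to 0.09). H2-K1 was read at 412, 411 and 656 CPM, a cKO log2 ratio of 0.67 (0.57 to 0.77). H2-D1 was read at 478, 302 and 680 CPM, with ratios of -0.66 (-0.80 to -0.53) in the Tspan12 KO and 0.51 (0.42 to 0.60) in the cKO. H2-D1 and B2m thus lay below WT in Tspan12 KO microglia as in Tspan12 KO ECs, both set against the same WT library. Tap1 was read at 24.9, 18.4 and 47.6 CPM and Tapbp at 74.0, 85.1 and 108 CPM. Psmb8 was the only class I member below WT in cKO microglia, at 180 CPM in WT, 127 in the Tspan12 KO and 149 in the cKO, a cKO ratio of -0.27 (-0.43 to -0.10).

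Levels in cKO microglia varied with the cluster and the gene. In the cluster led by Gpr34, which held 162 WT and 57 cKO cells, H2-K1 was read at 429 and 414 CPM and the 6-gene median log2 ratio was -0.03, while B2m was read at 1613 and 2098 CPM and the class I sum at 2788 and 3202 CPM. The cKO cells of the Cd300lf-led cluster read 671 CPM of H2-K1. Without doublet removal, where fewer cells were named microglia, the median was 1.07. Il1b and Ccl4, an inflammatory cytokine and a chemokine, were among the leading genes of that cluster, and its state and the library cannot be told apart.

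Class II RNA in WT microglia was nearly all Cd74 (34.0 CPM) and H2-Ab1 (32.8 CPM), with 1 UMI of H2-Aa and none of H2-Eb1. Tspan12 KO microglia read 26.3 and 31.7 CPM of Cd74 and H2-Ab1, with neither of the other chains. In cKO microglia, H2-Ab1 was level with WT at 31.0 CPM, a log2 ratio of -0.09 (-0.46 to 0.30), whereas Cd74 was read at 65.7 CPM, a ratio of 0.95 (0.61 to 1.30). H2-Aa was read at 8.73 CPM (55 UMIs) against 0.40, a ratio of 4.46 (1.93 to 9.79). H2-Eb1 was read at 10.8 CPM (68 UMIs), at least 9.10-fold higher than the 3 UMIs that a WT count of 0 allows. H2-Aa and H2-Eb1 were the 2 members called in cKO microglia. With 1 and 0 UMIs in WT they were counted only through the cKO library, so nothing is read from these calls, and both were lower there than in cKO ECs (27.0 and 32.5 CPM).

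Macrophages or monocytes read higher class I levels than microglia in the cKO library. In its 301 cells, H2-K1 was read at 1541 CPM, H2-D1 at 1495 and B2m at 1915 CPM, and the 21 cells of the Tspan12 KO read 970.4, 627 and 1197 CPM. The WT library had 1 such cell and gives no level. Class II members were low in these cells, with Cd74 at 68.4 CPM, H2-Aa at 3.16 and H2-Ab1 at 5.26 CPM in the cKO. The cKO ECs thus read above these named cells for each class II gene. This does not cover a cluster led by Plac8, a macrophage or monocyte marker, which stayed unnamed. Its cKO cells read 754 CPM of Cd74 and 1286 CPM of class II RNA, against 160 and 267 CPM in cKO ECs.

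Pericytes of the cKO library also held members of both routes. In these 90 cells H2-K1 was read at 444 CPM, B2m at 581, Cd74 at 76.0 and the class II members together at 169 CPM, against 53.3, 165, 0.83 and 5.83 CPM in 61 Tspan12 KO cells. H2-Eb1 was read at 34.2 CPM, against 32.5 CPM in cKO ECs. Endothelial markers summed to 4134 CPM in these cKO cells and to 4547 and 3900 CPM in the WT and Tspan12 KO pericytes, against 5668 CPM in cKO ECs, so these cells hold RNA of both types, and its part in the result was not tested.

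Levels of every member were low in neural classes. In rods the class I members summed to 46.2 CPM in WT, 38.4 in the Tspan12 KO and 290 in the Ctnnb1 cKO, and class II members to 1.59, 1.36 and 21.8 CPM. Müller glia read 89.7, 63.1 and 320 CPM of class I, and amacrine cells 54.2, 48.3 and 330 CPM. The counted class I members had median log2 ratios to WT, with 5 CPM added, of 1.665 in cKO rods and 1.30 in Müller glia. These medians were 2.14 in amacrine cells, 1.91 in cones and 1.96 in bipolar cells, on 2 to 5 genes per class. The EC median was 1.85, so the relative rise was not particular to ECs. In cKO rods the class I level was 11.5% of that in ECs and the class II level 8.17%. Endothelial markers, which rods should lack, stood in the same rods at 6.16% of their level in ECs, with single markers from 2.87% to 16.7%, and microglial markers at 3.55% of their microglial level. In WT rods these sums stood at 1.81% and 0.70%. The class I and class II sums in cKO rods lay within that range of single endothelial markers, and the part of free RNA in them was not tested. In WT rods the class I level was 7.96% of that in ECs, above single endothelial markers at 1.10% to 3.92%, and in Tspan12 KO rods 8.11%, above markers at 0.36% to 3.55%. Tapbp stood highest of the class I members, at 35.8%, 33.6% and 28.9% of its EC level in WT, Tspan12 KO and cKO rods.

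H2-Ab1 was an exception among class II members. It was read at 17.2, 11.9 and 25.9 CPM in amacrine cells and at 8.50, 6.31 and 5.90 CPM in Müller glia, where Cd74 was at 1.03 CPM or less and H2-Aa at 0 in the WT and Tspan12 KO libraries. It made up 94.5% of the class II UMIs of WT Müller glia, against 48.8% in WT microglia. In WT amacrine cells H2-Ab1 thus read above its level in WT ECs (2.05 CPM) and rods (0.92 CPM).

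Psmb8 takes the place of the constitutive subunit Psmb5 when immunoproteasomes form, as Psmb9 does of Psmb6 and Psmb10 of Psmb7. In ECs, Psmb8 made up 11.6% of the UMIs of its pair in WT, 11.1% in the Tspan12 KO and 48.8% (47.1 to 50.5) in Ctnnb1 cKO. Psmb9 made up 4.84%, 5.24% and 32.9% (31.1 to 34.7), and Psmb10 24.2%, 33.7% and 50.6% (48.3 to 53.0). Both sides of the Psmb8 pair moved, since Psmb5 was read at 269, 224 and 132 CPM while Psmb8 was read at 35.4, 27.9 and 125 CPM. Psmb10 was read at 43.9, 37.7 and 70.0 CPM and Psmb7 at 137, 74.1 and 68.3 CPM. The higher Psmb10 share in the Tspan12 KO thus went with lower Psmb7 and not with more Psmb10. A share within a pair shows an unequal difference and not which gene moved.

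Microglia already had high immunoproteasome shares in WT. Psmb8 made up 55.0%, 48.95% and 65.7% of its pair in the 3 libraries, Psmb9 17.1%, 13.2% and 28.5%, and Psmb10 42.1%, 42.8% and 48.9%. In cKO microglia, Psmb8 itself was lower than in WT while its share was higher, because Psmb5 was read at 78.1 CPM against 147. Macrophages or monocytes of the cKO had the highest Psmb8 share, 78.6% (73.3 to 83.2). In rods the Psmb8 share was 0.70%, 0.47% and 7.18%.

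**Figure D5:**
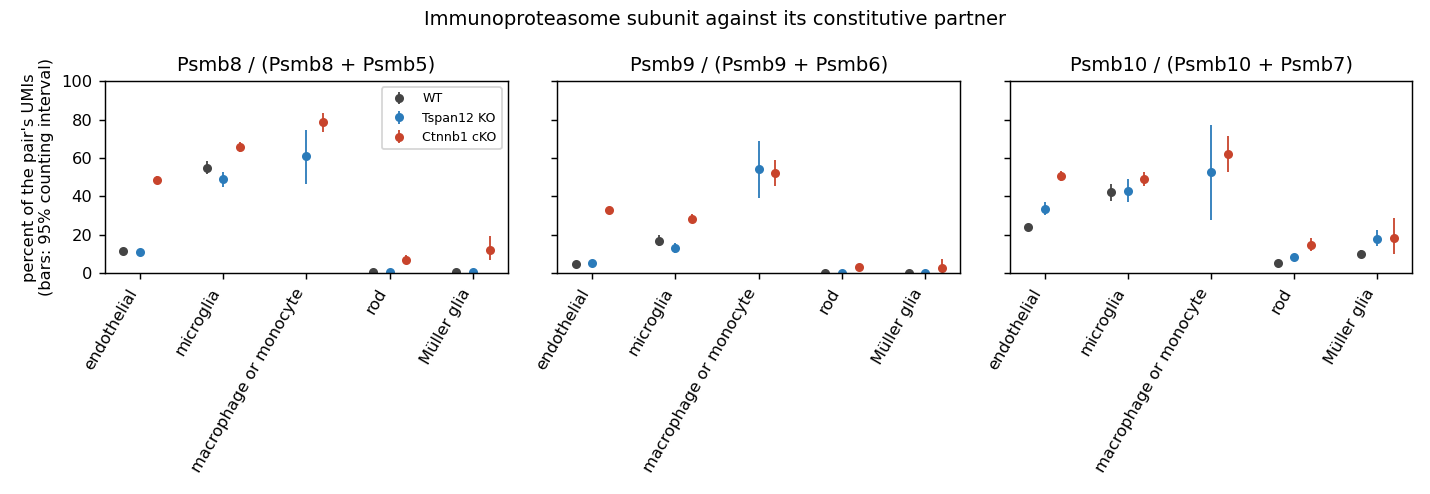
Percent of a pair's UMIs that come from the immunoproteasome subunit, for Psmb8 with Psmb5, Psmb9 with Psmb6 and Psmb10 with Psmb7, by class and library with exact 95% binomial intervals as bars. For the Psmb8 pair ECs stand at 11.6%, 11.1% and 48.8% in WT, Tspan12 KO and Ctnnb1 cKO, and microglia at 55.0%, 48.95% and 65.7%.

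Other genes of the pathway were taken from fixed lists and read by the same call, which 4.02% of all genes in cKO ECs passed upward and 5.13% downward. Genes with fewer than 50 UMIs in WT were counted only through the cKO library, so their calls support nothing, and the counts without them are given beside each list. Of 12 further class I heavy chain genes, 6 were counted in cKO ECs and 5 were called higher, with a median log2 ratio of 2.03, also with H2-Q6 at its bound, and 3 of 4 were called without H2-Q6 and H2-Q7. H2-Q7, a non-classical heavy chain, was read at 0.75 CPM (12 UMIs) in WT and 65.6 CPM in the cKO, and H2-Q6 at 0 UMIs and 33.2 CPM (425 UMIs), at least 178-fold higher than 3 UMIs in WT. H2-M3, which presents formylated peptides, was the one not called, at 14.4 and 21.9 CPM. In Tspan12 KO ECs none of the 4 counted was called.

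The peptide loading genes differed from Tap1 and Tapbp. Of 6 genes, none was called in cKO ECs and their median was -0.20. Tap2, the partner of Tap1, was read at 16.5 and 28.3 CPM in WT and cKO, a log2 ratio of 0.78 (0.55 to 1.02), and Pdia3, a thiol oxidoreductase of the loading complex, at 323 and 173 CPM, a ratio of -0.91 (-0.98 to -0.83). Of 4 immunoproteasome and activator genes, Psmb9 and Psme1 were called higher, against 4.02% of all genes, Psme1, a subunit of the proteasome activator, at 95.8 and 296 CPM. With 5 CPM added, the Psme1 log2 ratio was 1.16 in cKO microglia, 1.24 in rods and 1.09 in Müller glia. It was 1.15 in cones and 0.75 in amacrine cells, so its rise was not particular to ECs. Of 7 constitutive proteasome genes none was called higher and 3 were called lower, against 5.13% of all genes, with a median of -0.97. All of these genes had 50 or more UMIs in WT. The 3 called lower were Psma1, at 171 and 64.4 CPM, Psma3, at 368 and 163 CPM, and Psmb5. The median of the constitutive genes was also negative in other cKO classes. It was -0.79 in microglia, -0.85 in Müller glia, -0.62 in rods, -0.60 in amacrine cells, -0.59 in bipolar cells and -0.46 in cones.

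Among 10 further class II pathway genes, 6 were counted in cKO ECs and 3 called higher, with a median of 1.24, against 4.02% of all genes. Of the 3 with 50 or more UMIs in WT, 1 was called, namely Ctss. Its log2 ratio with 5 CPM added was 2.13 in cKO ECs. It was 2.27 in rods, 2.25 in Müller glia, 2.46 in amacrine cells and 2.39 in cones, so this rise was not particular to ECs. Ctss, the protease that trims the invariant chain, was read at 8.20 CPM in WT and 52.7 in the cKO, Ifi30, a thiol reductase of the lysosome, at 1.99 (32 UMIs) and 24.6 CPM, and H2-DMa, a chain of the peptide exchange factor, at 2.11 (34 UMIs) and 15.5 CPM. Lgmn, a lysosomal protease, was level at 74.3 and 75.0 CPM. In microglia none of the 8 counted was called in the cKO, with a median of -0.41.

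Of 7 transcriptional activators, 3 of the 6 counted were called higher in cKO ECs, against 4.02% of all genes, and 2 of 5 without Nlrc5. Nlrc5, the class I transactivator, was read at 0.81 CPM in WT (13 UMIs), 0.31 in the Tspan12 KO and 20.9 in the cKO (268 UMIs), a cKO log2 ratio of 4.69 (3.9 to 5.62). Irf1 was read at 34.1, 36.3 and 113 CPM, and Irf8 at 9.57, 16.7 and 24.3 CPM. Ciita, the class II transactivator, was too rare to be counted, with 2 UMIs in WT, 1 in the Tspan12 KO and 38 in the cKO (2.97 CPM), a cKO ratio of 4.58 (2.62 to 7.67). Both low subclusters held no Ciita UMI, and Nlrc5 had 0 UMIs in the Ptpru-led and 4 in the Rasd1-led cells. The Rfx genes, whose products bind the X box, were level, Rfxank at 8.14 and 6.56 CPM in WT and cKO.

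Of 25 interferon-stimulated genes, 24 were counted in cKO ECs and 23 called higher, with a median log2 ratio of 2.20, against 4.02% of all genes. Of the 16 with 50 or more UMIs in WT, 15 were called higher. Iigp1, an interferon-induced GTPase, was read at 0.44 CPM (7 UMIs) in WT and 104 in the cKO, and Isg15 at 18.8 and 164 CPM. Ifi27 was the one not called, at 58.3 and 37.8 CPM. In Tspan12 KO ECs none of the 18 counted was called, with a median of -0.08. The ligands Ifng, Ifnb1 and Ifna4 had no UMI in ECs of any library, and the 4 receptor genes counted were not called in the cKO, with a median of -0.02. In cKO microglia 14 of 23 interferon-stimulated genes were called higher and Ifi27 lower, with a median of 1.21, against 4.73% and 4.9% of all genes. Of the 7 with 50 or more UMIs in WT microglia, 3 were called higher. Nlrc5 was read at 5.93 CPM in WT and 36.2 in the cKO microglia. In cKO rods, Müller glia, amacrine cells and cones, 7, 5, 3 and 4 of the 25 interferon-stimulated genes were counted. Their medians were 1.55, 1.05, 1.16 and 1.095, so higher levels were not particular to ECs and microglia. Of these genes 4, 3, 1 and 1 had fewer than 50 UMIs in WT, and the part of free RNA was not tested.

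Of 4 costimulatory genes 3 were counted in cKO ECs and 1 was called higher, with a median of 0.84. This was Cd86, at 0.68 and 7.26 CPM, while Cd274 was read at 0.50 and 4.84 CPM and Cd40 at 61.8 and 30.5 CPM. Cd86 and Cd274 had 11 and 8 UMIs in WT and were counted only through the cKO library, and Cd40 was not called. None of Cd1d1, Mr1 and Fcgrt was called. In cKO microglia, H2-Q7 and H2-Q6 of 6 heavy chain genes counted, Psme1 and Cd274 were called higher and Psma1 lower. Of these, H2-Q7, H2-Q6 and Cd274 had fewer than 50 UMIs in WT. Of the transcriptional activators 6 were counted there and 2 called higher, with Irf1 highest at a log2 ratio of 2.04. Of the 2 activators with 50 or more UMIs in WT, 1 was called. Among all genes in cKO microglia, 4.73% were called higher and 4.9% lower. In Tspan12 KO microglia the calls in these lists were H2-T23, Ifitm3 and Cxcl10, all lower.

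Genes with the most similar pattern were sought by Pearson's r of log levels over 30 class and library units and 16003 genes. The class I sum was followed most closely by Apobec3 (r = 0.983), Sh3bgrl3 (0.976), Psmb9 (0.975), Srgn (0.975) and Ucp2 (0.971), and the class II sum by H2-Q4 (0.902), Ephx1 (0.900), Mx2 (0.879), Ppp6r1 (0.873) and Psme1 (0.861). Units of 1 library share its depth and free RNA, so these values describe likeness only.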

How the data were processed

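The authors deposited raw UMI counts per gene and barcode for 3 libraries (10x Genomics 3' chemistry). The matrix headers name Cell Ranger 8.0.1, while the methods name another version and mm10, and the submitters' processing notes name GRCm39, so the build of the files is not settled and no gene coordinates were taken from them. Promoters come from RefSeq GRCm38.p6.

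Barcodes had to show 250 genes and 500 UMIs, with a mitochondrial share of 15% or less. Likely doublets were taken out by Scrublet score at 0.8% per 1000 cells, since the automatic threshold marked 0 cells in WT and Tspan12 KO and 323 in the cKO, which left 8989, 12732 and 8451 cells of WT, Tspan12 KO and Ctnnb1 cKO. The 3 libraries were clustered together in scanpy 1.11.5 (2000 variable genes, 30 components, 20 neighbours, Leiden resolution 1), with 78 genes of the MHC and antigen lists, the 10 among them, held out. The 34 clusters were named from fixed markers, and clusters that met too few of them stayed unnamed.

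UMIs were summed per class and library and scaled to that class's total (CPM, per 1000000 UMIs). The 95% intervals were computed from the exact Poisson distribution for levels, by conditioning on the summed UMIs for ratios, and by the Clopper-Pearson method for shares, from scipy 1.17.1. A gene was counted with 50 or more UMIs over both libraries and called at a log2 ratio of 1 with 5 CPM added. A count of 0 was taken to allow 3. The counting step was tested on simulated data. With 1 library per genotype there is no replicate, and cells were not used as replicates. TMM scaling used edgeR 4.0.16. Levels are per UMI and not per transcript length, as each molecule is read at its 3' end.

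The 10 genes, the lists and the alternatives were chosen with earlier results of these data known. The text names the 10 genes, genes on the fixed lists, and 5 genes most like each summed level over classes with 50 or more cells.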

Additional observations from a re-analysis of the deposited data

Results flagged for a closer look

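Psmb8 went opposite ways in 2 cell types of the Ctnnb1 cKO. Against WT, the log2 ratio stood at 1.83 for ECs but at -0.27 for microglia, and the difference was not tested, as each side has 1 library.

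An unnamed cluster led by Plac8, with Ly6i, Ifitm6 and Treml4 among its leading genes, was left out of the comparisons between genotypes above. It read high in both routes in the cKO library (103 cells, against 23 in WT). H2-K1 was read at 1157 CPM there (WT 817), H2-D1 at 1197 (713), B2m at 1721 (1302) and the class I members together at 4789 CPM. Cd74 was read at 754 CPM (WT 43.6), H2-Aa at 164 (0), H2-Ab1 at 208 (16.3), H2-Eb1 at 159.6 (0) and the class II members together at 1286 CPM. This was the highest class II level among the clusters named in this text, and the cluster held 5.87% of the library's class II UMIs with 0.695% of all its UMIs.

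A second unnamed cluster, led by D17H6S56E-5, held all 8 microglial markers and cycling genes. Its cKO cells (208, against 10 in WT) read 687 CPM of H2-K1 (WT 415), 99.7 CPM of Tap1 (36.6) and 3462 CPM of the class I members together.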

How the results depend on the processing

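No paired analysis was possible because each genotype has 1 library, and no replicate could be left out. Of the values that answer a comparison under an alternative, 70 stayed within the counting error of the main value and 21 moved further. A further 1 changed sign from a main value larger than its counting error. Sign changes of main values within their counting error were not counted apart. The median log2 ratio of the class I members in cKO ECs (1.85) was 1.99 with TMM scaling, which shifted all genes by 0.14, 2.27 with cells gated on markers, 1.69 as a mean over cells, 1.67 with cells thinned, 1.71 without cycling cells, and, chosen after seeing the data, 1.67 in the cluster with most WT ECs, 2.05 without the Ptpru-led and Rasd1-led subclusters and 1.73 in Y-positive cells. The class II sum in cKO ECs (4.66 with 5 CPM added) was 5.31 with 1 CPM added, 5.18 as a mean over cells, 4.99 without cycling cells, 5.19 without the WT cell that held most class II UMIs, 5.59 in Y-positive cells and 2.89 in the cluster with most WT ECs. Without that WT cell the Tspan12 KO value went from -0.62 to -0.09. In cKO microglia the class I median (0.51) was -0.028 in the cluster with most WT microglia, where H2-K1 was -0.051, H2-D1 -0.097 and Tapbp -0.0060, and 1.07 without doublet removal, which left 125, 110 and 229 cells named microglia. H2-K1 in Tspan12 KO ECs was -0.073 with cells thinned. The share of class II UMIs in microglia, macrophages or monocytes and dendritic cells was 29.2%, 28.8% and 16.3% in WT, Tspan12 KO and cKO. It was 3.63%, 1.79% and 11.4% without doublet removal, 21.7% in the cKO under stricter cell filters, and 33.3% in WT and 15.3% in the cKO with libraries clustered apart. With a minimum of 200 UMIs, 15 genes were called higher and 46 lower in Tspan12 KO microglia, against 51 and 95 at 50 UMIs. The causes were not tested.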

Other observations

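Ifnb1, an interferon gene, had 35 UMIs in 7 cells of the Tspan12 KO library and none in the other libraries. Of these, 29 lay in 1 microglial cell with 1504 UMIs in all.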
